A study of Mus musculus with 8 samples.

Results

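Metallothioneins and the proteins that carry copper through the cell were examined as a group of 10 genes, Mt1, Mt2, Mt3, Mtf1, Slc31a1, Slc31a2, Atp7a, Atp7b, Atox1 and Ccs, taken by symbol from a table of 25050 named genes. All 10 were on the array, each with 1 probe set. Total RNA was hybridised to 8 whole-transcript Affymetrix arrays, of mammary epithelial cells from wild-type FVB mice in their 1st pregnancy or lactation, 4 arrays at day 4 of lactation (secretory activation) and 4 at day 14 of pregnancy (secretory differentiation). The cells of both stages had been depleted of adipocytes by enzymatic digestion of the gland, then washed, pelleted and frozen. No treatment or mutation distinguished the stages. The titles do not say whether each array came from a separate mother, so the spread that p-values rest on may be technical.

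Metallothioneins are small proteins, rich in cysteine, that bind zinc and copper in the cytosol and buffer their free concentrations. Mt1 and Mt2 are switched on by the transcription factor Mtf1 when zinc is abundant, through short metal response elements in their promoters. Copper enters cells through the plasma membrane transporter Slc31a1, is handed on by chaperones such as Atox1 and Ccs, and is pumped into the secretory pathway by the ATPases Atp7a and Atp7b. In the mammary gland those ATPases supply copper to milk, and the gland also secretes zinc.

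The promoters of the 3 metallothioneins among the 10 genes are shown because Mt1 and Mt2 moved together while Mt3 did not pass the test. Metal response elements are also a known route of control of Mt1 and Mt2. Each sequence is the 250 bases before the start used by RefSeq for GRCm38.p6, 5′ to 3′ on the plus strand, with matches to the core of the metal response element (TGCACNC or TGCGCNC, on either strand) in capitals. They lie at chr8:94178839-94179088 for Mt1, chr8:94172368-94172617 for Mt2 and chr8:94152357-94152606 for Mt3.
Mt1: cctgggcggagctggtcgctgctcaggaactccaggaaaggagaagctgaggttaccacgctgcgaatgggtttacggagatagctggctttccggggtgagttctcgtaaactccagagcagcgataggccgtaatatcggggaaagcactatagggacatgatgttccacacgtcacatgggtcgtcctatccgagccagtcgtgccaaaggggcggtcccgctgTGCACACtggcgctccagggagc
Mt2: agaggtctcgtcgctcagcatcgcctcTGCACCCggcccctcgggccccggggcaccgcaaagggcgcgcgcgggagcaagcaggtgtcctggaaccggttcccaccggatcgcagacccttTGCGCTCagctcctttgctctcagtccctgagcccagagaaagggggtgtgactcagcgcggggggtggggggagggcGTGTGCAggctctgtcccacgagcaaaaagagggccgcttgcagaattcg
Mt3: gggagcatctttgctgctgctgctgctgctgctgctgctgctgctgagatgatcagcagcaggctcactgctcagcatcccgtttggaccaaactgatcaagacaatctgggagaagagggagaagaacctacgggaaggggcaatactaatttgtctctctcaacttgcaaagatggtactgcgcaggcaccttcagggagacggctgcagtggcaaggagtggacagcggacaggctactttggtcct

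Counted over the whole 300-base windows, which run to 50 bases after the start, Mt2 held 4 matches, 3 of them before the start, as shown, and 1 after it, with 2 on each strand. Mt1 held 3, of which 1 lay before the start and 2 in the 27 bases after it, all on the plus strand. The Mt1 start used for the window lies inside the RefSeq gene span, so the window does not begin at the gene's outermost base. Mt3 held 1 match, which lay after the start, so none stands in capitals above. Matches that overlapped were counted once. Among 32841 windows of the same length, 25.7% held at least 1 match, 1.31% at least 3 and 0.295% at least 4. Of the 10 genes 9 had a window, and 6 of these held a match: the 3 metallothioneins, Atp7a with 2, and Atp7b and Slc31a2 with 1 each. Mtf1, Slc31a1 and Atox1 held none. As with Mt1, the starts used for Slc31a1 and Slc31a2 lie inside their RefSeq gene spans, so their windows are not placed at the outermost base.

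At lactation day 4, Mt2 fell 12.5-fold and Mt1 2.04-fold, while Slc31a1, the copper importer, rose 1.41-fold. The other 7 genes did not pass the threshold, a p under 0.05 in limma after Benjamini-Hochberg (BH) adjustment over all 25050 genes. Thus 2 of 10 genes were lower and 1 was higher, and for the same 3 genes the 4 arrays of a stage did not overlap those of the other. Over all genes 16.1% were called lower, 9.73% higher and 25.8% in either direction, so a call in 3 of 10 is close to the share of the whole array. Stages did not overlap in 29.6% of all genes, with lactation lower in 17.4% and higher in 12.1%. Lower genes were 62.3% of those called, and 47.1% after median centring of each array. On such bulk arrays, fewer cells of a type and less RNA per cell cannot be told apart, and markers of fibroblasts, T cells and macrophages were also lower in lactation, with medians of -1.03, -1.36 and -0.60. The median log2 fold change of the 10 genes was -0.26, against 0.01 over all genes.

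**Figure D1:**
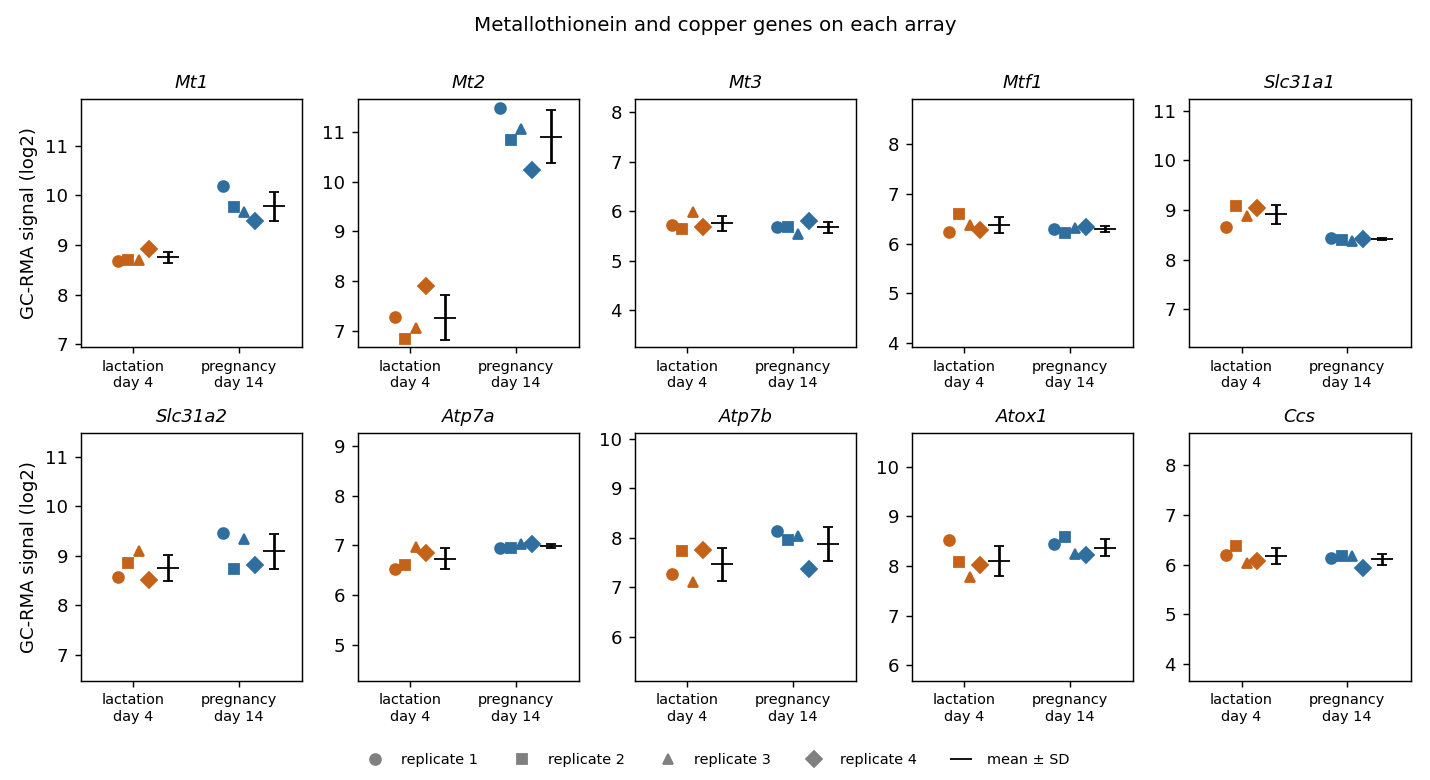
GC-RMA signal on the log2 scale (y axis, the same span of 5 units in every panel) for the 10 genes on each array, with lactation day 4 (orange) left of pregnancy day 14 (blue), a symbol per replicate number and the mean ± SD of 4 arrays in black. The stages are apart for Mt1 and Mt2, which are lower in lactation, and for Slc31a1, which is higher in lactation.

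Mt2 showed the wider change of the metallothioneins. Its log2 signal was 7.28, 6.83, 7.05 and 7.89 on the 4 lactation arrays, against 11.49, 10.85, 11.07 and 10.23 on the 4 pregnancy arrays. The stages were far apart, since the highest lactation array lay 2.34 log2 units below the lowest pregnancy array. The means were 7.26 ± 0.46 and 10.91 ± 0.53 (SD, n = 4 each), with a log2 fold change of -3.65 (SE 0.276, 95% confidence interval -4.26 to -3.03, limma BH-adjusted p = 2.11e-05). Only 2 of the 25050 genes had a lower log2 fold change. Replicate 4 was the nearest to the other stage in both groups, the highest of the lactation arrays and the lowest of the pregnancy arrays.

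Mt1, which encodes the other metallothionein that is made in most tissues, fell less. Its log2 signal was 8.68, 8.69, 8.71 and 8.92 in lactation, against 10.19, 9.76, 9.67 and 9.49 in pregnancy. Every lactation array lay below every pregnancy array, with a gap of 0.56, and replicate 4 again lay nearest to the other stage in both groups. Means of 8.75 ± 0.12 and 9.78 ± 0.30 (SD, n = 4 each) gave a log2 fold change of -1.03 (SE 0.136, limma BH-adjusted p = 5.75e-04). Lactation replicates 1 to 3 were closely bunched, replicate 4 lay above them, and the pregnancy arrays were more spread.

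Mt3, a metallothionein best known from the brain, had a log2 signal of 5.71, 5.64, 5.98 and 5.68 in lactation, against 5.68, 5.67, 5.53 and 5.81 in pregnancy. The stages overlapped, and the log2 fold change was 0.08 (95% confidence interval -0.15 to 0.31, limma BH-adjusted p = 0.59), and it was 0.004 without lactation replicate 3, the highest array. Mt4, the remaining metallothionein of the family and known from stratified epithelia, is not among the 10 genes. Its means were 4.97 ± 0.14 in lactation and 4.76 ± 0.05 in pregnancy (SD, n = 4 each), a log2 fold change of 0.22 (limma BH-adjusted p = 0.0905). Its call appeared under 3 of 18 alternatives, among them the one without lactation replicate 4 and the one with arrays centred on their median (adjusted p = 0.0409 in limma).

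All 4 metallothionein genes lie next to each other on chromosome 8, at map positions 46.26 (Mt4), 46.29 (Mt3), 46.32 (Mt2) and 46.34 cM (Mt1) in the deposited annotation. Mt2 and Mt1, at one end of the row, fell, and Mt4 and Mt3, at the other, did not pass the test. Beyond the cluster the nearest 2 protein-coding genes on each side in the RefSeq order moved unequally. On the Mt4 side Bbs2, a gene of the primary cilium, had a log2 fold change of -0.45 (limma BH-adjusted p = 0.0115) and Ogfod1 of 0.36 (limma BH-adjusted p = 0.0101). On the Mt1 side Nup93, a nuclear pore subunit, had a log2 fold change of -0.55 (limma BH-adjusted p = 0.00303) and Slc12a3, a sodium chloride carrier known from the kidney, of 0.22 (limma BH-adjusted p = 0.0982). These neighbours were chosen by position alone, after the metallothionein values were seen.

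Mt2 and Mt1 can be set against each other on the same array. The sign of such a difference carries the probes' own brightness, so only its change between stages is read. Mt2 minus Mt1 was -1.40, -1.86, -1.65 and -1.03 log2 units in lactation, against 1.30, 1.09, 1.40 and 0.74 in pregnancy. The stages did not overlap, and the difference changed by -2.62 log2 units (SE 0.230), so that Mt2 lost more signal than Mt1. The exact two-sided permutation test gave p = 0.0286, the smallest value that 4 arrays against 4 allow, and 0.0571 after Benjamini-Hochberg adjustment over the 4 pairs of genes compared, which misses 0.05. Mt1 and Mt2 are close paralogs, and how far their probe sets share signal was not tested.

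The genes whose pattern over the 8 arrays was most like that of each metallothionein were found by the root mean square difference of log2 profiles, each centred on its own mean. For Mt2 they were Plscr2 (0.31 log2 units), the receptor tyrosine kinase Kit (0.32), the cytochrome P450 Cyp1b1 (0.34), the zinc importer Slc39a4 (0.34) and the thioesterase Acot1 (0.42). A flat profile would have stood 1.87 from Mt2. For Mt1 they were Zfp637 (0.07), the proteasome assembly chaperone Psmd10 (0.09), Serinc5 (0.10), Tmem98 (0.12) and the glypican Gpc4 (0.13), against 0.55 for a flat profile. Mt1 and Mt2 differed from each other by 1.34, since their changes were of unequal size. All 10 of these neighbours in pattern were lower in lactation, a direction that the likeness to Mt1 or Mt2 fixes.

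Mtf1, the factor that activates Mt1 and Mt2, did not pass the test. Its log2 signal was 6.24, 6.60, 6.37 and 6.28 in lactation, against 6.29, 6.22, 6.32 and 6.34 in pregnancy. Lactation replicates 2 and 3 lay above all pregnancy arrays, replicate 3 only just, and the others overlapped them. The log2 fold change was 0.08 (95% confidence interval -0.14 to 0.30, limma BH-adjusted p = 0.574), and without lactation replicate 2 it was 0.004.

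**Figure D2:**
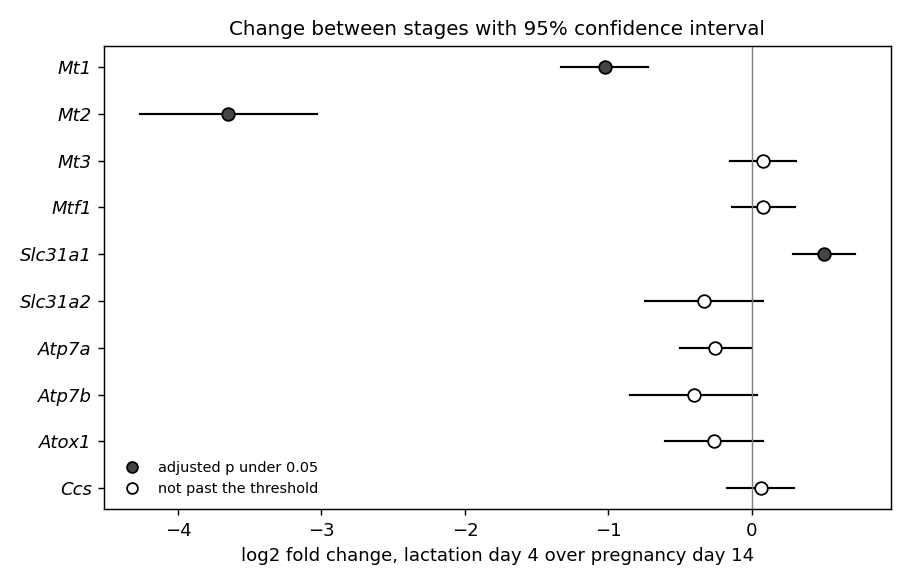
Log2 fold change of lactation day 4 over pregnancy day 14 (x axis) for the 10 genes, with 95% confidence intervals from limma as lines. Filled points passed an adjusted p of 0.05: Mt2 at -3.65, Mt1 at -1.03 and Slc31a1 at 0.50. Of the open points, the interval of Atp7a just excludes 0 and the others include it.

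Among the copper transporters, Slc31a1, the high-affinity importer also called Ctr1, rose. Its log2 signal was 8.65, 9.08, 8.87 and 9.03 in lactation, against 8.43, 8.40, 8.38 and 8.42 in pregnancy. All lactation arrays were higher, by at least 0.22, and the pregnancy arrays agreed within a few hundredths of a unit. Means of 8.91 ± 0.19 and 8.41 ± 0.02 (SD, n = 4 each) gave a log2 fold change of 0.50 (SE 0.0973, limma BH-adjusted p = 0.00475).

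Slc31a2, a related protein of endosomes and lysosomes, had a log2 signal of 8.57, 8.85, 9.09 and 8.51 in lactation, against 9.45, 8.74, 9.34 and 8.81 in pregnancy. The stages overlapped, and the log2 fold change was -0.33 (95% confidence interval -0.74 to 0.08, limma BH-adjusted p = 0.208), and -0.21 without pregnancy replicate 1. Slc31a2 minus Slc31a1 changed by -0.83 log2 units between stages (SE 0.238), with every lactation array (-0.52 to 0.22) below every pregnancy array (0.34 to 1.02). The exact two-sided permutation p was 0.0286, and 0.0571 adjusted over the 4 pairs. Both genes lie on chromosome 4 in the deposited annotation, with Fkbp15 between them in the RefSeq order, which fell (log2 fold change -0.55, limma BH-adjusted p = 0.00608).

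The copper pumps did not pass the test. Atp7a, the ATPase altered in Menkes disease of humans, had a log2 signal of 6.52, 6.60, 6.97 and 6.84 in lactation, against 6.95, 6.94, 7.03 and 7.03 in pregnancy. Lactation replicates 1, 2 and 4 lay below all pregnancy arrays and replicate 3 overlapped them. The log2 fold change was -0.25 (95% confidence interval -0.50 to -0.01, limma BH-adjusted p = 0.119). Without lactation replicate 3 it was -0.33 and passed the threshold (limma BH-adjusted p = 0.0437).

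Atp7b, the ATPase altered in Wilson disease of humans and in the toxic milk mouse, had a log2 signal of 7.27, 7.73, 7.10 and 7.76 in lactation, against 8.13, 7.96, 8.03 and 7.36 in pregnancy. Pregnancy replicate 4 lay among the lactation arrays, and the other 3 pregnancy arrays lay above all of them. The log2 fold change was -0.40 (95% confidence interval -0.85 to 0.04, limma BH-adjusted p = 0.159), and -0.57 without pregnancy replicate 4 (limma BH-adjusted p = 0.0398). That array was also the lowest of its stage for Mt1 and Mt2. Atp7b minus Atp7a changed by -0.15 log2 units (SE 0.286, exact two-sided permutation p = 0.543, also 0.543 adjusted over the 4 pairs), and its sign turned without lactation replicate 3.

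The chaperones overlapped between stages. Atox1, which carries copper to the ATPases, had a log2 signal of 8.52, 8.08, 7.79 and 8.03 in lactation, against 8.44, 8.59, 8.24 and 8.21 in pregnancy. Lactation replicate 1 lay among the pregnancy arrays while the other lactation arrays lay below them. The log2 fold change was -0.27 (95% confidence interval -0.60 to 0.07, limma BH-adjusted p = 0.221), and -0.40 without lactation replicate 1 (limma BH-adjusted p = 0.0413) but -0.16 without lactation replicate 3.

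Ccs, which loads copper into the superoxide dismutase Sod1, had a log2 signal of 6.20, 6.38, 6.03 and 6.06 in lactation, against 6.14, 6.17, 6.18 and 5.94 in pregnancy. Lactation replicates 1 and 2 lay above all pregnancy arrays and pregnancy replicate 4 below all lactation arrays, while the remaining arrays overlapped between stages. The log2 fold change was 0.06 (95% confidence interval -0.18 to 0.30, limma BH-adjusted p = 0.697), and -0.01 without lactation replicate 2. Its client Sod1 had a log2 fold change of 0.20 (SE 0.0834, limma BH-adjusted p = 0.107), and it passed the threshold under 3 of 18 alternatives, with limma adjusted p = 0.0232 without lactation replicate 4. Ccs minus Atox1 changed by 0.33 log2 units (SE 0.158, exact two-sided permutation p = 0.114, 0.152 adjusted over the 4 pairs).

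**Figure D3:**
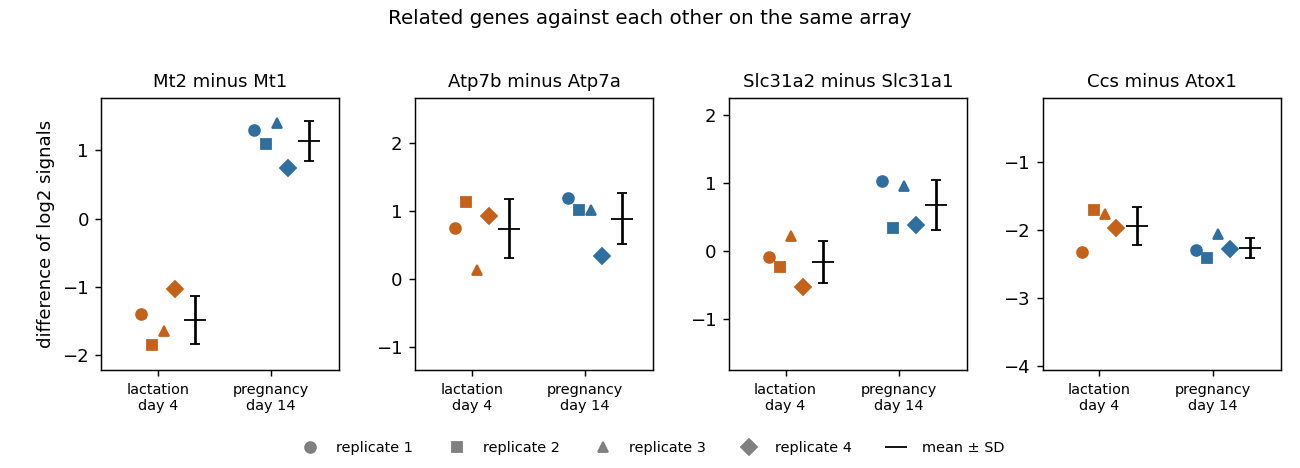
Difference of the log2 signals of 2 related genes on the same array (y axis, a span of 4 log2 units in every panel), for lactation day 4 (orange, left) and pregnancy day 14 (blue, right), with the mean ± SD of 4 arrays in black. Mt2 minus Mt1 and Slc31a2 minus Slc31a1 are lower on every lactation array than on any pregnancy array, and the other 2 pairs overlap.

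Around these 10 genes, 8 lists of other metal-handling and metal-responsive genes held 71 genes, all measured (Slc30a1 and Slc39a10 are each in 2 lists), of which 16 rose and 9 fell, with a median log2 fold change of 0.09. These are 22.5% higher and 12.7% lower, against 9.73% and 16.1% of all genes, the shares against which each list's counts below are to be read, and the difference was not tested. In mitochondrial copper delivery only Cox19, an assembly factor of cytochrome oxidase, passed the test among 8 genes (log2 fold change 0.50, limma BH-adjusted p = 0.00602). The other 7, among them the chaperones Cox17, Sco1 and Sco2, did not pass it, and the list's median was -0.06.

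Copper trafficking and reduction held 3 rises and 1 fall among 8 genes, with a median of 0.03. Steap2, a metalloreductase that acts on iron and copper, had log2 signals of 8.14, 8.29, 8.46 and 8.68 in lactation, against 5.79, 5.84, 6.04 and 6.49 in pregnancy. The stages stood 1.65 apart at their nearest arrays, and the log2 fold change was 2.35 (SE 0.168, limma BH-adjusted p = 1.54e-05). Steap3, of the same family, rose by 0.71 and the clathrin adaptor subunit Ap1g1 by 0.52, while Steap4, a related reductase, fell by 0.99 (limma BH-adjusted p = 0.00342). Commd1, a protein that binds Atp7b, lay near the threshold (log2 fold change -0.23, limma BH-adjusted p = 0.0504). It stayed uncalled under 13 of 18 alternatives. The falls of the list were 2 without pregnancy replicate 4. They were also 2 under other alternatives, among them quantile normalization and the fit without the intensity trend.

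Of 17 copper-dependent enzymes 2 rose and 6 fell, with a median of -0.22. The rises were 1 under 9 of 18 alternatives, among them the fit without the dimmest 40% of genes. The smaller rise, of Tyr, the pigment enzyme tyrosinase, lay near the threshold (log2 fold change 0.18, limma BH-adjusted p = 0.0482). Tyr was also dim, at 3.47 ± 0.10 in lactation and 3.29 ± 0.06 in pregnancy (SD, n = 4 each), where values on the arrays ran from 2.04 to 13.03. The falls were 3 without pregnancy replicate 1. The rise of Hephl1, a ferroxidase related to hephaestin, was 1.63 (SE 0.1, limma BH-adjusted p = 5.92e-06), with 8.82 to 9.20 on the lactation arrays against 7.20 to 7.46 on the pregnancy arrays. Moxd1, a monooxygenase-like protein, fell by 1.26, the lysyl oxidase Loxl1 by 0.84 and the peptide amidating enzyme Pam by 0.74. Cp, ceruloplasmin, the main copper protein of plasma, fell by 0.58 with limma BH-adjusted p = 0.0495, a call that ended under 11 of 18 alternatives. Lysyl oxidases crosslink collagen and are made by fibroblasts, whose markers were also lower in lactation, as given below.

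Of 8 known Mtf1 targets other than metallothioneins, 1 rose and 1 fell, with a median of 0.20, and 2 rose without pregnancy replicate 4. Slc30a1, a zinc exporter of the plasma membrane that Mtf1 activates, had log2 signals of 6.12, 5.79, 6.12 and 6.30 in lactation, against 7.06, 6.76, 6.88 and 6.30 in pregnancy. The stages only just failed to overlap, replicate 4 of each meeting at 6.30. The log2 fold change was -0.67 (SE 0.167, limma BH-adjusted p = 0.0164), and the call ended after quantile normalization (adjusted p = 0.0525 in limma) and without pregnancy replicate 3 (adjusted p = 0.051 in limma). Slc39a10, a zinc importer that Mtf1 represses, rose by 0.85 (SE 0.157, limma BH-adjusted p = 0.00353), with 7.96 to 8.25 in lactation against 6.86 to 7.58 in pregnancy. The 300-base window of Slc30a1 held 2 matches to the metal response core, 1 before the start and 1 after it, and the windows of Slc39a10 held none.

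Zinc carriers, which move the metal that metallothioneins mostly bind, changed in both directions. Of 10 Slc30 exporters 3 rose and 1 fell, with a median of 0.24. Slc30a2, which loads zinc into secretory vesicles of milk-making cells, rose by 2.58 (SE 0.134, limma BH-adjusted p = 2.42e-06), Slc30a7, of the Golgi, by 0.64 and Slc30a4, the gene altered in the lethal milk mouse, by 0.56. Of 14 Slc39 importers 6 rose and 1 fell, with a median of 0.23. Slc39a8, which also carries manganese, rose by 2.92 (SE 0.215), Slc39a6 by 1.56 and Slc39a11 by 0.87. The fall was that of Slc39a4, the intestinal zinc importer altered in acrodermatitis enteropathica of humans, at 4.67, 4.60, 4.69 and 4.80 in lactation against 8.59, 8.08, 8.24 and 8.20 in pregnancy. Its log2 fold change of -3.59 (SE 0.118, limma BH-adjusted p = 2.2e-07) was close in size to that of Mt2.

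Mt1 and Mt2 also respond to glucocorticoids. Of 7 glucocorticoid-responsive genes, 1 rose and none fell, with a median of 0.31, and 2 rose without lactation replicate 3. The transcription factor Klf9 rose by 0.63 (SE 0.128, limma BH-adjusted p = 0.00612), and Tsc22d3, Fkbp5, Per1, Sgk1, Dusp1 and Zbtb16 did not pass the test, with log2 fold changes between -0.03 and 0.89.

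**Figure D4:**
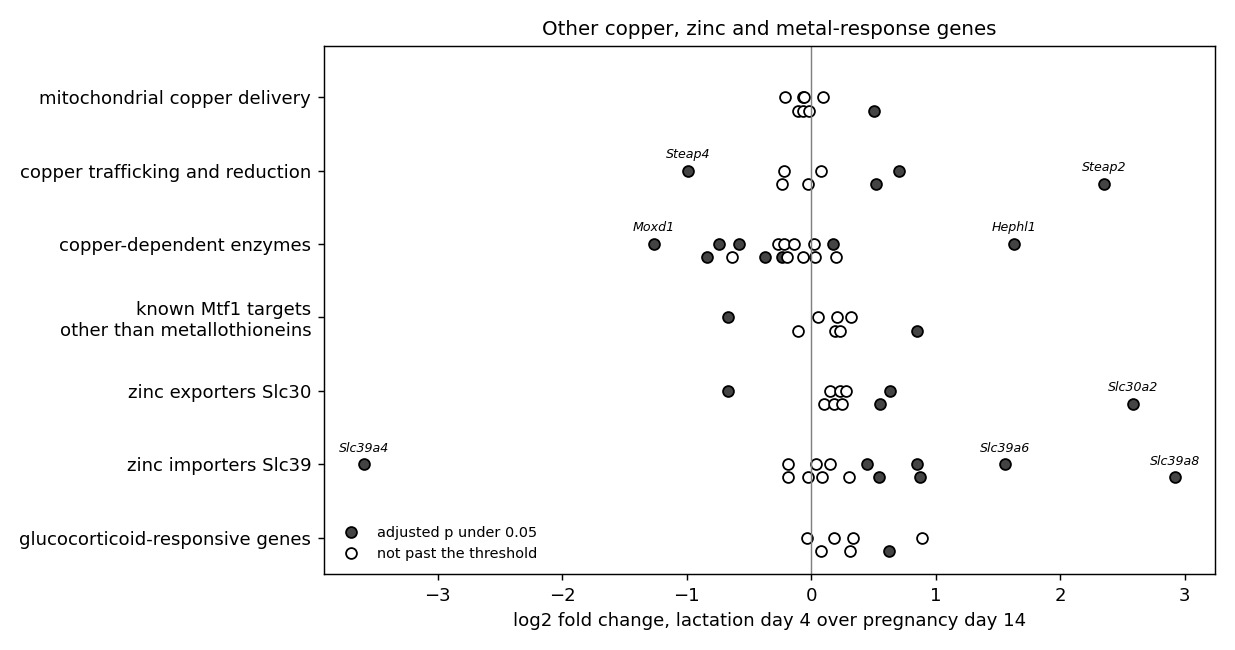
Log2 fold change of lactation day 4 over pregnancy day 14 (x axis) for the genes of 7 lists (rows), each point a gene, filled where the BH-adjusted p in limma was under 0.05. Slc39a4 at -3.59 and Slc39a8 at 2.92 are the outermost points, and the mitochondrial copper genes lie near 0 apart from Cox19 at 0.50.

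Epithelial markers gave signal on all 8 arrays. Epcam, a surface marker of epithelium, averaged 9.89 ± 0.12 in lactation and 10.004 ± 0.12 in pregnancy (SD, n = 4 each), and of 9 luminal markers 4 rose and 4 fell, the falls being Krt8, Krt18, Krt19 and Cdh1. Markers of other cells were lower in lactation in several lists. Of 8 fibroblast markers 6 fell (median -1.03), of 7 T cell markers 6 fell (median -1.36), of 8 macrophage markers 3 fell (median -0.60) and of 5 red blood cell markers 3 fell (median -0.53). None of these rose, and 16.1% of all genes were called lower. The mean log2 signal of the fibroblast list ran between 6.44 and 7.78 in lactation and between 8.004 and 8.81 in pregnancy, that of the T cell list between 4.80 and 5.67 in lactation and between 5.84 and 7.36 in pregnancy, and that of the macrophage list between 5.48 and 6.56 in lactation and between 6.55 and 7.17 in pregnancy. Of 7 B and plasma cell markers, Xbp1, which secretory epithelium also makes, rose. None of 7 endothelial markers passed the test in limma, and of 7 adipocyte markers Lep rose. Adipocyte markers still gave signal, with Adipoq at 6.47 ± 0.72 in lactation and 6.40 ± 0.92 in pregnancy (SD, n = 4 each). The mean log2 signal of the adipocyte list ran between 6.40 and 7.67 in lactation and between 5.47 and 7.05 in pregnancy. It was lowest on pregnancy replicate 4 and highest on lactation replicate 1.

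Pregnancy replicate 2 had the highest mean of the fibroblast, T cell and macrophage lists and the highest Loxl1 (6.49). Mt1 and Mt2 were highest on pregnancy replicate 1. Lactation replicate 2 had the lowest mean of the fibroblast and macrophage lists, the lowest Mt2 (6.83) and the lowest Loxl1 (4.75). Mt1 was lowest on lactation replicate 1. On lactation replicate 4 Mt1 and Mt2 were the highest among the lactation arrays. The fibroblast list was also highest there among the lactation arrays, while the T cell list was lowest there. The macrophage list was highest among them on lactation replicate 3. The part of fibroblasts, T cells and macrophages in the change of Mt1, Mt2 and Loxl1 was not tested. Across genes, arrays of the same stage correlated at 0.9865 or more and arrays of different stages at 0.9777 or less.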

How the data were processed

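The authors deposited GC-RMA values on the log2 scale, 1 for each probe set on each array. GC-RMA subtracts a background that depends on probe sequence, brings the arrays to a common distribution and combines the probes of a set. Per the submitters' processing notes, the tools were GCRMA and Partek. Which versions, options and genome build they used is not given in the sources used here. Coordinates are therefore printed only for RefSeq promoter sequences. A second deposited table of log2 values differed by at most 0.

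Of 35556 probe sets 26836 had a symbol. Symbols were updated with the RefSeq table of GRCm38.p6 (22036 by accession, 3614 by current symbol, 143 by a unique synonym, 1043 kept), which left 25050 genes. Where a gene had several probe sets (975 genes), that with the highest mean over 8 arrays was used. Groups came from the sample titles. The stages were compared in limma 3.58.1 (R 4.3.3) with lmFit and eBayes with an intensity trend, without a filter, and Benjamini-Hochberg adjustment over all genes. Differences between paired genes were tested by exact permutation (scipy 1.17.1, 70 splits).

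The 10 members and the gene lists were chosen with earlier results of these data known. Named genes were the members, up to 4 called genes of each list with the largest changes, with the largest of a direction missing among these, and the 5 genes most like Mt1 and the 5 most like Mt2, leaving out predicted, immunoglobulin, T cell receptor, small RNA and olfactory or vomeronasal genes. Cp, Tyr, Commd1, Sod1, Mt4 and the chromosomal neighbours were added after their values were seen, as were list members named only as not passing the test. Alternatives covered the variance model, a filter on dim genes, normalization, probe sets, the second table, a replicate block and leaving out each array. On simulated data for this comparison with 25050 genes, 50.75% of 67 genes shifted by 0.5 log2 units, 97.01% of 67 shifted by 1 and 100% of 66 shifted by 2 were recovered, with 5 false among 170 calls. Only 200 genes were shifted there, against 6463 called in the data. The simulated errors were also independent between genes, so these rates need not hold for the real arrays. The number of arrays limits precision: the median half-width of a 95% confidence interval was 0.21 log2 units.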

Additional observations from a re-analysis of the deposited data

Results flagged for a closer look

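Of 28 groups of 4 arrays examined (14 values in each stage, those of the 10 genes and of the 4 pair differences), 1 held an array far from the others, where chance flags about 1 in 20 groups. Mt1 on lactation replicate 4 had a log2 signal of 8.92, with 8.68 to 8.71 on the other lactation arrays, so the gap took 0.893 of the range, above Dixon's 95% critical value for 4 samples. Mt2 was also highest on that array among the lactation arrays, at 7.89.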

How the results depend on the processing

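Mt1, Mt2 and Slc31a1 kept their direction and their call under all 18 alternatives, with log2 fold changes of -1.12 to -0.89, -3.88 to -3.45 and 0.44 to 0.59 and limma adjusted p-values up to 0.00345, 4.87e-04 and 0.0179. Some of the 18 could not move the fold changes of the 10 genes. The second table held the same values, and each gene had 1 probe set, so the alternatives on probe sets left them as they were. Mt3, Mtf1 and Slc31a2 passed the threshold under none of them. Leaving out each array in turn moved Atp7a between -0.33 and -0.18, Atp7b between -0.57 and -0.28 and Atox1 between -0.40 and -0.16, with a call for each when 1 array was left out, and Ccs between -0.01 and 0.11, reversed at -0.0096 without lactation day 4 replicate 2. Atp7b minus Atp7a ran between -0.33 and 0.05 and reversed to 0.0507 without lactation day 4 replicate 3. With an array left out the smallest exact p of a pair difference is 0.0571. All genes called higher numbered 3719 after median centring of each array, 6089 after centring on the mean of the brighter 60% of genes and 1537 to 2487 with an array left out (1537 without pregnancy day 14 replicate 3), against 2438 as reported. The share lower among called genes was 62.3% as reported, 47.1% after median centring, 53.2% after quantile normalization and 33.3% after centring on the brighter genes, which moved the median of all genes from 0.014 to 0.105. Whether the replicate numbers pair the samples cannot be settled from the values. In the titles, replicates 1 to 3 bear the letters A, B and C in both stages. Replicate 4 is E in lactation and F in pregnancy, so its shared number does not mark a shared letter. Deviations of same-numbered arrays correlated at -0.164 to 0.242. Lactation replicate 1 correlated best with pregnancy replicate 2 (0.276) and lactation replicate 2 with pregnancy replicate 1 (0.188). Lactation replicates 3 and 4 each correlated best with the pregnancy array of the same number (0.151 and 0.178). The fit with the replicate number as a block called 6465 genes against 6463 and ended no call of the 10 genes (Mt2 log2 fold change -3.65). Under quantile normalization the call of Slc30a1 ended.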
